A study of Mus musculus with 7 samples.

Results

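The genes described are 9 that mark naive embryonic stem cells or germ cells, apart from the core pluripotency factors: Dppa2, Dppa3, Dppa4, Dppa5a, Fbxo15, Zfp42, Tex15, Dazl and Mael. They were taken by NCBI gene number and are 9 of 24990 features counted in each library. Expression was read by 3′ RNA-seq of polyadenylated RNA in 7 libraries of mouse embryoid bodies, which are clumps of differentiating embryonic stem cells grown without LIF, the cytokine that holds them undifferentiated. All 7 came from the R1 embryonic stem cell line, were started as hanging drops of 500 cells in serum medium and were collected on day 4. By title, WT1 and WT2 came from unmodified cells, pKO1 and pKO2 from cells lacking the promoter of the long non-coding RNA Meteor, pInv from cells with that promoter inverted, Ctrl from cells with an empty vector, and KD from cells with a CRISPR knockdown of Meteor. The sources name Cas9 for this knockdown in one place and dCas9 in another, so whether DNA was cut or transcription repressed in KD is not settled here. The labels do not say how many clones stand behind the edited groups, nor whether WT1 and WT2, or pKO1 and pKO2, were separate cultures, so the spread between them may be technical and p-values measure that spread only. The genotype field contradicts the titles of 5 libraries: it gives the promoter knockout for WT1 and WT2, the inversion for pKO1, and wild type for pKO2 and pInv. Groups follow the titles here, and each direction between them rests on that choice.

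Dppa2 and Dppa4 are DNA-binding proteins with a SAP domain that act as a pair in mouse stem cells and early embryos, where they keep CpG-rich developmental promoters free of DNA methylation. Dppa3 (Stella) protects the methylation of the maternal genome after fertilisation, Dppa5a is a KH-domain RNA-binding protein of stem cells and germ cells, Fbxo15 is an F-box protein of stem cells, and Zfp42 (Rex1) is a zinc finger protein whose loss is a standard sign of exit from the naive state. Tex15 and Mael serve the silencing of transposons in male germ cells, and Dazl binds messenger RNA in germ cells. Germline genes of the kind of Dazl and Mael are known to be held silent outside the germ line by DNA methylation of CpG-rich promoters and by the Polycomb complex that carries Mga, Max and E2f6.

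RefSeq promoters (GRCm38.p6, a later build than the mm9 of the files) were matched for 3 of the 9 genes. They are shown because they set a gene that was read in every library, Zfp42, beside germline genes that were close to silent, Dazl and Mael. Each is the 250 bases before the start of the gene, 5′ to 3′ on the gene's own strand. Capitals mark the octamer ATTTGCAT, the letters that Oct4 recognises, the E-box CACGTG of Mga and Max, and TCCCGC, the letters of E2F6, each searched on both strands.
Zfp42, chr8:43307010-43307259, minus strand: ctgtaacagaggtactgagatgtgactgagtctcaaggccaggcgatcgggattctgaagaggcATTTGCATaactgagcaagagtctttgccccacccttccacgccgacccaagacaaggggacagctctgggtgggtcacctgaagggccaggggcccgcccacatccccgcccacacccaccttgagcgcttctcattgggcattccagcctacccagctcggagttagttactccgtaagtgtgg
Dazl, chr17:50293621-50293870, minus strand: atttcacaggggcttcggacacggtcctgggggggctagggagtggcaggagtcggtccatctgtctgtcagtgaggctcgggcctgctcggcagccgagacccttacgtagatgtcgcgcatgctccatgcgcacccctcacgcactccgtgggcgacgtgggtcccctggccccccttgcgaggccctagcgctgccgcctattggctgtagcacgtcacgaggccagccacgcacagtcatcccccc
Mael, chr1:166238745-166238994, minus strand: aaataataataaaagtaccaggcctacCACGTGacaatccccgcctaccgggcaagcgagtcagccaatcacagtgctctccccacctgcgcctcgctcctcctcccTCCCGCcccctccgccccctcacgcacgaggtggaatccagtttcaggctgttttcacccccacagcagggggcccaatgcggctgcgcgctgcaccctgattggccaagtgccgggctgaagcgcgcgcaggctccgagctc
The window of Zfp42 held 9 CpG, that of Dazl 20 and that of Mael 18, against a median of 6 over 32851 RefSeq promoter windows of the same length. Fewer CpG than in Zfp42 were held by 59.7% of those windows, fewer than in Dazl by 82.1% and fewer than in Mael by 78.3%. The octamer stood in 1.6% of those windows, the E-box in 6.02% and TCCCGC in 16.9%. None of the 3 motifs was found in the window of Dazl. A match is a run of letters and not a site shown to be bound, and methylation was not measured in these libraries.

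The library totals lay between 1898350 (WT2) and 2564478 (WT1) expected counts, so 1 CPM (counts scaled to a common library size with the TMM factor) was worth 2 or 3 reads. Where no read was found, the level could still reach 1.12 CPM (WT1) to 1.80 CPM (WT2), by a floor of 3 counts, and such floors and intervals hold counting error alone. The libraries carried streak and epiblast genes: Eomes stood at 312 to 459 CPM, Pou5f1 at 1086 to 2188 CPM and the epiblast gene Fgf5 at 36.0 to 56.9 CPM. WT2 stood apart, with the 18 primitive streak genes listed summing to 807 CPM against 1619 to 3139 CPM in the other libraries. KD had the highest sum, of which Lhx1 alone held 1138 CPM. The 16 genes of feeder fibroblasts summed to 7.61 to 14.3 CPM, with Fap and Col6a1 at 0 counts throughout.

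Of the 9 genes, 6 were read in all 7 libraries and passed the filter on low counts (Dppa2, Dppa4, Dppa5a, Fbxo15, Zfp42 and Tex15). The other 3 did not: Dppa3 had 2 counts in all 7 libraries together, Dazl 6 and Mael 10. Per length, in the authors' TPM averaged over 7 libraries, Dppa5a was the most abundant at 322 ± 101 TPM (SD, n = 7), and Dppa4 followed at 50.7 ± 15.7 TPM (SD, n = 7). Zfp42 (13.3 ± 6.28 TPM), Fbxo15 (10.1 ± 4.07 TPM), Dppa2 (9.58 ± 3.31 TPM) and Tex15 (7.43 ± 2.75 TPM, SD, n = 7 for each) overlapped one another in their ranges over the libraries. Mael (0.747 TPM), Dazl (0.307 TPM) and Dppa3 (0.213 TPM) came last. Counts from 3′ RNA-seq need not rise with transcript length, so TPM may place long transcripts such as that of Tex15 too low. By mean CPM, Dppa5a (214) and Dppa4 (43.9) were still the highest. Tex15 (20.0) then stood above Zfp42 (13.0), Dppa2 (9.77) and Fbxo15 (9.12).

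**Figure D1:**
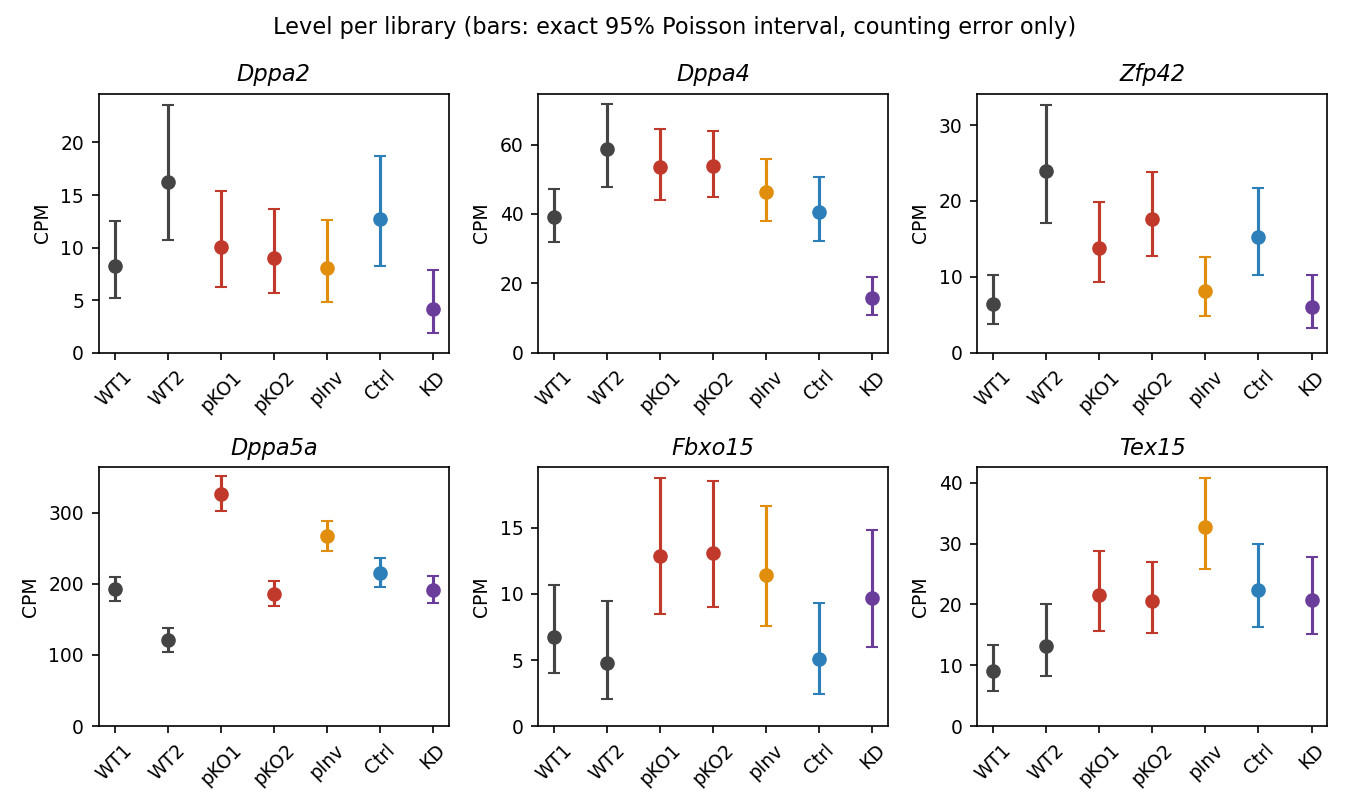
CPM of the 6 genes with enough counts (y axis, from 0) in each of the 7 libraries (x axis), with exact 95% Poisson intervals for counting error as bars and colours by group. Dppa2, Dppa4 and Zfp42 are lowest in KD, and Tex15 is lowest in the 2 WT libraries and highest in pInv at 32.7 CPM.

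Dppa2 and Dppa4 had their lowest level of the 7 libraries in KD. For Dppa4, WT1 had 39.0 CPM and WT2 58.8, pKO1 had 53.5 and pKO2 53.8, pInv had 46.3, Ctrl 40.6 and KD 15.7. The 6 libraries other than KD lay within a range that WT1 and WT2 span on their own, and the counting interval of KD (10.9 to 21.9 CPM) overlapped none of theirs. For Dppa2, WT1 had 8.25 CPM and WT2 16.2, pKO1 had 10.0 and pKO2 9.03, pInv had 8.06, Ctrl 12.7 and KD 4.16. Here the interval of KD (1.9 to 7.89 CPM, from 9 reads) overlapped those of WT1, both pKO libraries and pInv. The expected counts of Dppa2 were not whole in any library, so RSEM split some of its reads with another feature, and its level is less certain than that of Dppa4, whose counts were whole in all 7.

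Zfp42 differed more between the 2 WT libraries than between KD and Ctrl. Of its RNA, WT1 had 6.37 CPM and WT2 24.0, pKO1 had 13.9 and pKO2 17.6, pInv had 8.06, Ctrl 15.2 and KD 6.0. WT2 was 3.77-fold above WT1, and their counting intervals (17.2 to 32.7 and 3.71 to 10.2 CPM) did not overlap, whereas pKO2 was 1.27-fold above pKO1. The WT mean of 15.2 ± 12.5 CPM (SD, n = 2) and the pKO mean of 15.7 ± 2.68 CPM (SD, n = 2) were close beside that spread.

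For Dppa5a, the most abundant of the 9, WT1 had 192 CPM and WT2 121, pKO1 had 326 and pKO2 186, pInv had 267, Ctrl 215 and KD 192. The library numbered 2 was lower in both groups that have 2, at 0.627 times WT1 and 0.570 times pKO1. WT (156 ± 50.7 CPM, SD, n = 2) and pKO (256 ± 99.3 CPM, SD, n = 2) overlapped, as pKO2 lay below WT1. Its expected counts were not whole in any library, so part of its reads were split with other features as well.

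For Fbxo15, WT1 had 6.75 CPM and WT2 4.80, pKO1 had 12.9 and pKO2 13.1, pInv had 11.5, Ctrl 5.08 and KD 9.70. All 3 libraries with an edited promoter lay above both WT libraries and Ctrl, and KD lay between them. This pattern was singled out after the values were seen, and its share over all genes was not counted. Taken singly, pKO lay wholly above WT for 12% of genes tested, and pInv above both WT libraries for 29%. These levels rested on 8 to 32 reads a library, and the interval of WT1 (4.00 to 10.7 CPM) overlapped that of pKO1 (8.50 to 18.8 CPM).

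Tex15 was the germline gene of the 9 that was clearly expressed. Of this RNA, WT1 had 9.0 CPM and WT2 13.2, pKO1 had 21.5 and pKO2 20.5, pInv had 32.7, Ctrl 22.3 and KD 20.8. Both WT libraries lay below the other 5, a pattern singled out after the values were seen and shared by 3.76% of the 10265 genes tested. Ctrl, which carries an unedited promoter, was as high as pKO. Its level in pInv was the highest of the 7, and pInv was the highest library for 13.8% of genes tested.

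Dazl, Mael and Dppa3 had at most 3 rounded counts, the floor, in every library. Dazl had 2 counts in WT1, 1 in pKO1, 3 in KD and 0 in the other 4. Mael had 2 counts in WT1, 1 in pKO1, 2 in pKO2, 3 in pInv, 2 in KD and 0 in WT2 and Ctrl, and its expected counts were not whole in 5 libraries. Dppa3 had 1 count each in WT2 and Ctrl and 0 in the other 5. No fold is given for them, since no difference was detectable at this depth.

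**Figure D2:**
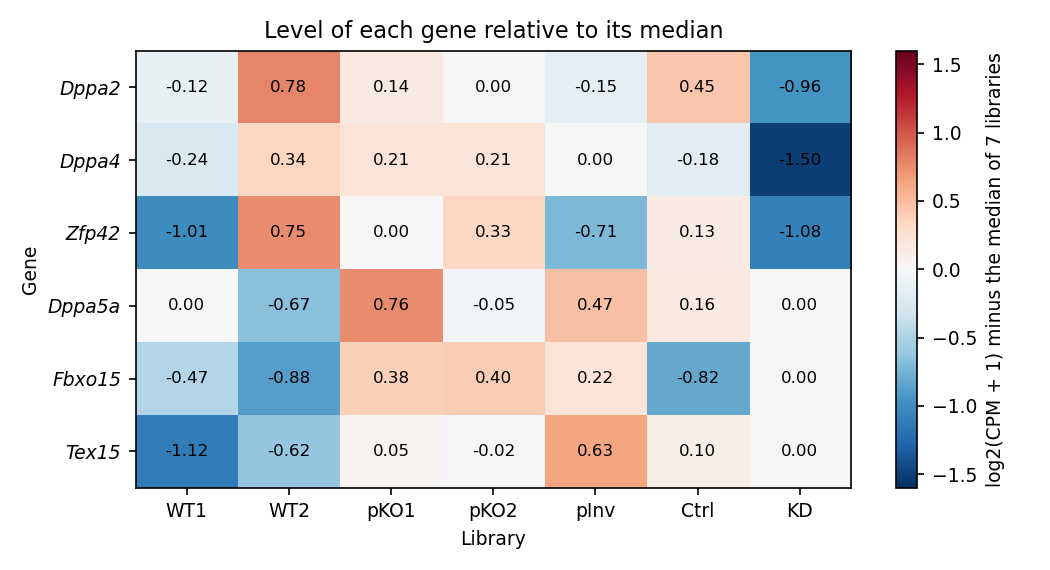
log2(CPM + 1) of each gene minus its median over the 7 libraries, as colours and printed values, with libraries on the x axis and genes on the y axis. WT2 is above the median in the rows of Dppa2, Dppa4 and Zfp42 (0.78, 0.34 and 0.75) and below it in those of Dppa5a, Fbxo15 and Tex15 (−0.67, −0.88 and −0.62).

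Across the libraries the 6 genes fell into a pattern of 2 blocks. Pearson's r of log2(CPM + 1) over the 7 libraries, given as a description since the libraries span 5 groups, was 0.83 between Dppa2 and Dppa4, 0.83 between Dppa2 and Zfp42 and 0.71 between Dppa4 and Zfp42. Dppa5a, Fbxo15 and Tex15 had r of 0.64, 0.56 and 0.52 with each other (Dppa5a with Fbxo15, Dppa5a with Tex15, and Fbxo15 with Tex15). Between the blocks r ran from −0.53 (Dppa2 with Fbxo15) to 0.00. WT2 was the highest of the 7 libraries for Dppa2, Dppa4 and Zfp42 and the lowest for Dppa5a and Fbxo15. Over all 10265 genes tested, WT2 was the highest for 24.7% and the lowest for 27.6%, so such a place was common for this library. KD was the lowest for Dppa2, Dppa4 and Zfp42, against 17% of all genes. WT2 and KD were also the libraries with the lowest (WT2, 807 CPM) and the highest (KD, 3139 CPM) sum of streak genes, and the part of that sum in these levels was not tested. In bulk libraries fewer cells that express a gene and less RNA per cell cannot be told apart.

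Setting pKO beside WT addresses the loss of the Meteor promoter. Fbxo15 and Tex15 were higher in both pKO libraries than in both WT libraries, and no gene of the 9 was called. Of the 6 tested, 0 passed an adjusted p under 0.05 in edgeR's quasi-likelihood test (background 0% of 10265 genes). Before adjustment 2 of the 6 had an edgeR p under 0.05, both higher in pKO, against 1.03% of all genes in either direction and 0.507% in that one. Fbxo15 had a log2 difference of 1.04 (SE 0.41), with an unadjusted p of 0.0345 and an edgeR adjusted p of 1. For Tex15 the log2 difference was 0.89 (SE 0.36), with an unadjusted p of 0.0377 and an edgeR adjusted p of 1. The 2 groups did not overlap for these 2 genes, where 12% of all genes tested had pKO wholly above WT, and overlapped for the other 4. Dppa5a had a log2 difference of 0.70 (SE 0.36) and an adjusted p of 1, and Dppa2 one of −0.30 (SE 0.45) and an adjusted p of 1, in the same edgeR test. In all, 5 of the 6 log2 differences were above 0, with a median of 0.42 against −0.00 over all genes tested. Primitive streak genes leaned the same way in this comparison, with 11 of 15 above 0, a median of 0.41 and the lowest sum in WT2, and their part in the shift of the 6 was not tested. Without WT2 the log2 difference of Dppa5a was 0.43. With the groups of the genotype field, Fbxo15 (−0.96) and Tex15 (−1.21) turned lower in the libraries that field calls knockout.

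Setting pInv beside WT addresses the inverted promoter, and it uses the same WT libraries as the comparison before. Tex15 showed its widest gap here, at 32.7 CPM in pInv against 9.0 and 13.2 CPM in WT. Its log2 difference was 1.5 (SE 0.41), a 2.83-fold level, with an unadjusted p of 0.00654, the 4th smallest of all genes tested, and an edgeR adjusted p of 1. Of the 6 genes, 0 passed the adjusted threshold (background 0%) and before adjustment 1 had an edgeR p under 0.05 (background 1.48%). Fbxo15 (0.87, SE 0.48) and Dppa5a (0.76, SE 0.43) also stood above both WT libraries, as did 29% of all genes, both with an edgeR adjusted p of 1. Without WT2 the difference of Dppa5a was 0.47. Dppa2 stood below both, as did 28% of all genes. Zfp42 had a log2 difference of −0.80 (SE 0.73, edgeR adjusted p of 1), and without WT2 it turned to 0.30. The median over the 6 was 0.35 against −0.01 over all genes tested, with 3 above 0 and 3 below. The spread of pInv, a lone library, was borrowed from WT and pKO.

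Between the promoter alleles, pInv against pKO, the genes lay closer together. None of the 6 was called (background 0%), and before adjustment 0 had an edgeR p under 0.05 (background 1.49%). Tex15 had a log2 difference of 0.62 (SE 0.41) and Zfp42 was at 8.06 CPM against 13.9 and 17.6 CPM in pKO (−0.90, SE 0.72), both with an edgeR adjusted p of 1. Dppa4 (−0.21, SE 0.40) and Dppa2 (−0.22, SE 0.55) had smaller differences, both with an edgeR adjusted p of 1. pInv lay below both pKO libraries for 4 of the 6 genes, where 31.5% of all genes did, and above both for 1, Tex15, where 34.2% did. The median log2 difference was −0.19 against 0.00 over all genes tested.

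**Figure D3:**
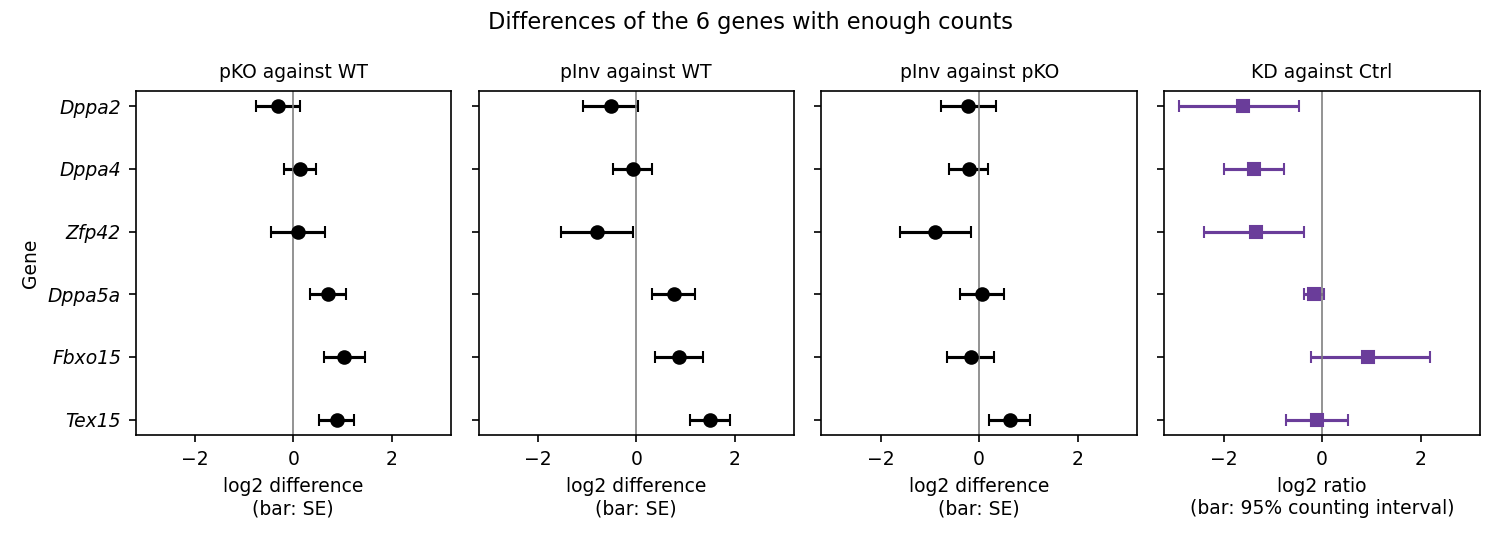
log2 differences of the 6 genes (x axis) for the 3 tested comparisons, with bars of 1 SE, and in the last panel the log2 KD to Ctrl ratio with its exact 95% counting interval. No gene passed the adjusted threshold in the first 3 panels, and the intervals of Dppa2, Dppa4 and Zfp42 lie below 0 in the last.

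The knockdown was set beside its empty-vector control with 1 library each, so it has no replicate check and is given without a p-value. Dppa2, Dppa4 and Zfp42 were lower in KD, and Dppa5a and Tex15 were at levels close to those of Ctrl. The ratio of KD to Ctrl for Dppa4 was 0.387, from 34 and 80 reads, and the reads alone gave it an exact 95% interval of 0.251 to 0.584. Dppa2 had a ratio of 0.327 (interval 0.134 to 0.725) from 9 and 25 reads. Zfp42 had a ratio of 0.394 (0.189 to 0.779) from 13 and 30 reads. These 3 intervals exclude 1 but cover the reads of 2 libraries only. Zfp42 was as low in WT1 (6.37 CPM) as in KD (6.0 CPM), whereas no other library was near KD for Dppa4. Dppa5a (0.892, interval 0.777 to 1.02) and Tex15 (0.930, interval 0.600 to 1.44) had intervals that include 1. Fbxo15 was at 9.70 against 5.08 CPM, a ratio of 1.91 whose interval (0.861 to 4.54) also includes 1. By the size rule of 20 CPM in either library and a 2-fold ratio, 1 of the 3 genes at that level was called, Dppa4, against 5.29% of 5083 features called in either direction (1.26% lower and 4.03% higher). Dppa2 and Zfp42 were below 20 CPM in both libraries. KD also held more of the streak list than Ctrl (3139 against 2177 CPM summed) and less Pou5f1 (1086 against 1536 CPM). The streak sum leaned on Lhx1, at 1138 against 492 CPM. Mesp1 (243 against 71.6 CPM) and Mesp2 (34.2 against 5.08 CPM) were also higher by 2-fold or more, while Eomes was at 399 against 421 CPM and T at 358 against 340 CPM. Of the 14 streak genes at 20 CPM or more, 10 were higher in KD and 4 lower, with 3 higher and 0 lower by 2-fold or more. The part of these differences in the Dppa levels was not tested.

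Other naive genes gave no calls in the tested comparisons and 2 by the size rule in KD. Of 36 other naive pluripotency genes 24 were tested, and 0 passed in any of the 3 edgeR comparisons (background 0%). Their median log2 difference was 0.15 in pKO and −0.07 in pInv relative to WT, and −0.28 in pInv relative to pKO. Esrrb, a core naive regulator, had 0.462 to 3.28 CPM, and Nr0b1 had 0 counts in all 7 libraries. Tfcp2l1, a naive transcription factor, was at 3.0 and 0.600 CPM in the WT libraries and at 6.21 and 7.80 CPM in the pKO libraries (log2 difference 1.47, SE 0.62, edgeR adjusted p of 1). Ctrl, at 7.11 CPM, was level with pKO, pInv was at 2.55 CPM, and WT2 held 1 read, under its floor. Klf2, Klf4, Esrrb, Tfcp2l1 and Tbx3 were below 20 CPM in both KD and Ctrl. Of these, Klf4 and Tbx3 were higher in KD, and Klf2, Esrrb and Tfcp2l1 were lower. In KD against Ctrl, 10 of the naive genes reached 20 CPM, 8 of them lower, with a median log2 ratio of −0.50 against −0.03 over all features at that level. That median leaves out the genes just named, and it includes Trim28, which is also on the list of repressors of germline genes. Of those 10, 2 were lower by 2-fold or more: Dnmt3l, the cofactor of the de novo DNA methyltransferases, at 8.31 against 25.4 CPM (ratio 0.327), and Tcea3, an elongation factor, at 9.24 against 23.4 CPM (ratio 0.395). For Tcea3 it was Ctrl that stood apart, since the WT, pKO and pInv libraries lay at 8.49 to 12.9 CPM, around the level of KD. Dnmt3l was at 15.7 to 36.4 CPM in those 5 libraries, all above KD.

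**Figure D4:**
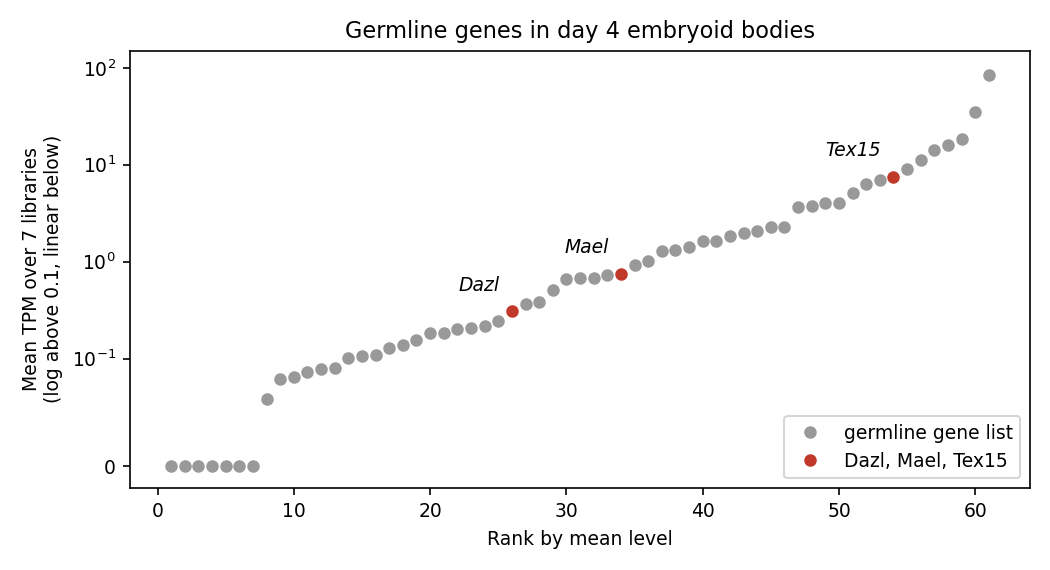
Mean TPM over the 7 libraries (y axis, log above 0.1 and linear below) of 58 listed germline genes in grey and of Dazl, Mael and Tex15 in red, ranked from low to high on the x axis. Tex15 is the 54th of 61 genes at 7.43 TPM, while Dazl is the 26th and Mael the 34th.

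Most of a list of 58 other germline genes was, like Dazl and Mael, close to silent. In this list 7 genes had 0 counts in all libraries, among them Stra8, Piwil4 and Asz1, and 17 passed the filter on low counts. Of 61 genes ranked by mean TPM, with the limit on length given above, Tex15 was 54th, Mael 34th and Dazl 26th. The highest were Syce2, a synaptonemal complex gene at 84.3 TPM, and Nefm, a neurofilament gene rather than a germ cell gene, at 35.1 TPM. None of the 17 passed in edgeR's test in the 3 comparisons, with medians of −0.06 in pKO and 0.32 in pInv relative to WT, and 0.34 in pInv relative to pKO. Spo11, the meiotic nuclease, had 6.0 and 3.6 CPM in the WT libraries, 0.478 and 1.64 in the pKO libraries, 6.37 in pInv, 2.03 in Ctrl and 4.16 in KD. Ctrl lay close to pKO2, and pKO1 held 1 read, under its floor. The log2 difference of Spo11 for pKO against WT was −1.54 (SE 0.63, edgeR adjusted p of 1). Rnf17, a tudor-domain gene of male germ cells, had 21.4 and 15.0 CPM in the WT libraries, 32.0 and 29.5 in the pKO libraries, 26.7 in pInv, 29.4 in Ctrl and 48.9 in KD. Of 17 matched genes of primordial germ cells, 8 passed the filter on low counts and 9 did not. Regulators of these cells stood on both sides: Prdm14 had 2 counts and Nanos3 had 4 in all 7 libraries, while Prdm1 had 167 and Tfap2c 357. Of 20 matched genes of 2-cell-like cells, in which Dppa2 and Dppa4 act, 2 passed the filter and 4 had 0 counts in all libraries, Zscan4d among them. Those that passed were Eif1a, a translation initiation factor, at 55.8 to 91.0 CPM, and Zscan4b, at 1.64 to 6.75 CPM. The whole list summed to 65.4 to 98.4 CPM, most of it Eif1a.

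The repressors of germline genes all passed the filter on low counts, but not all were well read. E2f6 stood at only 1.64 to 6.93 CPM, and in WT2 it was at the floor of 1.80 CPM. All 29 listed genes were tested and 0 passed in the 3 comparisons in edgeR's test, with medians of 0.04 in pKO and 0.03 in pInv relative to WT, and −0.04 in pInv relative to pKO. Mga, the scaffold of the Polycomb complex named above, ran from 114 to 141 CPM. Max, its partner, was at 55.8 and 27.0 CPM in WT and 79.4 CPM in pInv (log2 difference 0.91, SE 0.47, edgeR adjusted p of 1). Atf7ip, a cofactor of the histone methyltransferase Setdb1, was at 31.9 and 52.8 CPM in WT and 19 CPM in pInv (−1.10, SE 0.46, edgeR adjusted p of 1). This was not particular to pInv, since Atf7ip was below both WT libraries in pKO (26.8 and 28.7 CPM), Ctrl (24.4 CPM) and KD (20.3 CPM) too.

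Among 4679 other genes with a mean of 20 CPM or more, those most like Dppa4 over the 7 libraries were Dnmt3a (r = 0.98), a de novo DNA methyltransferase, Zfp959 (r = 0.96) and Nav1 (r = 0.95). For Dnmt3a, WT1 had 76.8 CPM and WT2 97.2, pKO1 had 82.6 and pKO2 84.1, pInv had 81.5, Ctrl 75.1 and KD 49.4, so its lowest library was KD as well. For Dppa5a the nearest genes were Gnl3 (r = 0.98), Gtf3c4 (r = 0.97) and Rc3h2 (r = 0.95). For Tex15 they were Dcaf8 (r = 0.94), Bcat1 (r = 0.90) and Akr1a1 (r = 0.89). These values of r are the highest of 4679 and describe these libraries only, which share scaling and differ in depth.

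Dppa2 and Dppa4 are neighbours on chromosome 16, and both were lowest in KD. Nectin3, a cell adhesion gene and the nearest counted gene on the far side of Dppa4, had 31.4 CPM in KD against 42.6 CPM in Ctrl (ratio 0.736, interval 0.527 to 1.03). Dppa3 lies between Gdf3 and Nanog on chromosome 6, and both of these had reads in all 7 libraries, where Dppa3 had reads in 2: Gdf3, a TGF-beta family ligand, at 1.91 to 4.12 CPM, too low to pass the filter, and Nanog, a core pluripotency factor, at 7.80 to 33.7 CPM. Ooep, an oocyte gene next to Dppa5a, had at most 1.20 CPM in any library, while Dppa5a had at least 121 CPM. Ppp2cb, a phosphatase subunit next to Tex15, was at 153 and 234 CPM in WT and 226 CPM in pInv, a log2 difference of 0.22 against 1.5 for Tex15. Purg, the neighbour on the other side of Tex15, had its highest level of the 7 libraries in pInv, as Tex15 did. It was at 6.79 CPM there, a log2 difference of 1.08 from WT, and rested on few reads in every library.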

How the data were processed

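RNA was read with the Lexogen QuantSeq 3′ kit, per the labels' protocols, after feeder cells were depleted on gelatin. The authors deposited RSEM expected counts, TPM and FPKM per gene for each library, per the file headers. The build was mm9, per the submitters' processing notes. For strand setting, trimming and duplicate handling, no statement is given in the sources used here. The deposited expected counts were rounded for the tests. The TPM deposited by the authors is per length, and the deposited FPKM was not used. Transcript lengths in the files exceed those of GENCODE by a median of 1999 bases over 17453 transcripts (for Dppa5a 2639 against 619 bases), so TPM rests on these longer lengths, and reads just downstream of a gene may be counted in it.

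Names came from a RefSeq table of GRCm38. edgeR 4.0.16 in R 4.3.3 was run on all 7 libraries by title group: filterByExpr kept 10265 of 24990 features, libraries were scaled by TMM, and 1 quasi-likelihood fit without covariates had 2 residual degrees of freedom and a prior of 5.86. P-values were adjusted by Benjamini-Hochberg over all tested genes, and log2 differences used a prior count of 2. As edgeR's test prints no SE, each SE is the absolute log2 difference divided by the square root of the test's F statistic. It is therefore approximate. With KD and Ctrl at 1 library each, ratios carry exact binomial 95% intervals. Alternatives used DESeq2 1.42.0, limma 3.58.1 on log2(TPM + 1), other scalings, no filter, genotype-field groups, a replicate block and left-out libraries. The code of the fit was checked on simulated counts that gave all genes 1 common dispersion. That check does not show which differences could be called in these libraries. A single feature that the name table leaves unnamed took 12.9% to 24.1% of each library and stayed in the library sizes.

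Members and lists were chosen with earlier results of these data known. All 9 genes are described, with full statistics for up to 4 with the smallest p in each comparison. From each list described, genes were named among up to 4 with the smallest p or, in KD, the largest ratio. Likeness used genes at 20 CPM or more. Esrrb, Nr0b1, Stra8, Piwil4, Asz1, Syce2, Nefm, Prdm14, Nanos3, Prdm1, Tfap2c, Mga, Eif1a and the Zscan4 genes were chosen after their values were seen or as defining markers.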

Additional observations from a re-analysis of the deposited data

How the results depend on the processing

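No member was called in edgeR's, DESeq2's or limma's test under any of 10 alternatives (smallest adjusted p 0.263). Of 120 values of named genes under alternatives, 111 kept their direction. Grouping by the genotype field reversed 7: for pKO against WT, Fbxo15 (−0.96), Tex15 (−1.21), Dppa5a (−0.53) and Dppa2 (0.45); for pInv against WT, Tex15 (−0.29) and Zfp42 (0.10); and for pInv against pKO, Dppa4 (0.13). With that grouping the median over the 6 tested genes moved to −0.28 for pKO against WT and to 0.53 for pInv against pKO, since most libraries change group. Leaving out single libraries gave Dppa2 a range of −0.71 to 0.21 for pKO against WT and Zfp42 one of −1.47 to 0.30 for pInv against WT, both turning above 0 without WT2. In the same way the median over the 6 ran from 0.25 to 0.68 for pKO against WT, from 0.32 to 0.38 for pInv against WT and from −0.25 to −0.19 for pInv against pKO. Dppa5a for pKO against WT ran from 0.25 without pKO1 to 1.08 without WT1, and for pInv against WT from 0.47 without WT2 to 1.14 without WT1, with 0.43 under the replicate block. With no minimum level, 3 genes in place of 1 were past 2-fold in KD against Ctrl (Dppa2, Dppa4 and Zfp42). Over all genes, where 0 were called, 9, 6 and 8 were called without the filter on low counts (pKO against WT, pInv against WT, pInv against pKO). Without pKO1 these counts were 4, 0 and 2, without pKO2 they were 7, 0 and 7, and the genotype field gave 7 for pInv against WT. A replicate block by title number gave medians of 0.46, 0.26 and −0.16 and called 0, 1 and 0 genes of all, while 0 members were called. The numbers are not stated to pair the libraries, although the differences between number 2 and number 1 in WT and pKO correlated across 4682 genes (r = 0.50). The cause of these shifts was not tested. Depth limits Dppa3, Dazl and Mael to a floor of 1.12 to 1.80 CPM.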

Other observations

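Among genes of primordial germ cells other than Dppa3, 8 of 17 matched genes were tested by edgeR and 0 were called over the 3 comparisons. In KD against Ctrl, 6 of them reached 20 CPM and 2 were higher by 2-fold or more, a size that 4.03% of 5083 features reached in that direction. Cxcr4, a chemokine receptor that mesoderm and endoderm also carry, was at 39.7 against 5.08 CPM (ratio 7.82), and Ifitm1, an interferon-induced membrane gene, was at 114 against 47.7 CPM (ratio 2.38). Prdm1, a repressor that founds the germ line and is also made in endoderm, was at 20.3 against 11.2 CPM (ratio 1.82, interval 1.07 to 3.19). WT2 was the lowest library for Cxcr4 (0 counts), Prdm1 (1.80 CPM) and Ifitm1 (13.2 CPM), and the highest for Ifitm3 (37.8 CPM), Elavl2 (106 CPM) and Alpl (11.4 CPM) of the same list. The list summed to 181 CPM in WT2, 173 in pInv and 217 to 316 in the other 5 libraries.

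Formative epiblast genes went both ways in KD against Ctrl, with 1 library each. Sall2, a zinc finger gene, was at 21.7 against 43.7 CPM in Ctrl (ratio 0.497), Pou3f1, a POU factor of the epiblast, at 38.8 against 77.7 CPM (0.499) and Nodal at 42.5 against 81.2 CPM (0.523). Sall2 and Pou3f1 were the 2 lower by 2-fold or more, a size that 1.26% of 5083 features reached in that direction. Both also differed widely between WT1 and WT2, with Sall2 at 31.9 and 70.8 CPM and Pou3f1 at 54.3 and 131 CPM. Of the 17 genes of that list at 20 CPM or more, 10 were lower in KD and 7 higher, with Cdh2 at 211 against 109 CPM.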
